A study of Mus musculus with 9 samples.

Results

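The VEGF family comprises 5 ligand genes (Vegfa, Vegfb, Pgf, Vegfc and Vegfd) and 3 receptor genes (Flt1, Kdr and Flt4), and its 8 members were taken by name. All 8 were found among the 50686 genes of the deposited count table and all 8 passed the expression filter that left 15531 genes for testing. VEGF ligands are secreted dimers that bind receptor tyrosine kinases on endothelium. VEGFA signals mainly through KDR (also called VEGFR2 or Flk1), VEGFB and PGF bind FLT1 (VEGFR1), which takes up VEGFA tightly but signals weakly and also exists as a soluble decoy, and VEGFC and VEGFD act on FLT4 (VEGFR3), the receptor of lymphatic and sprouting vessels. In bone, VEGFA made by osteoblasts is known to draw vessels into the growing tissue.

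The study asked whether inhibition of GSK3 moves osteoblasts toward an endothelial state, and the compound came from a screen with a reporter driven by the Flk1 promoter, that is, the promoter of Kdr. RNA-Seq was performed on 3 groups of 3 libraries: control MC3T3-E1 cells, MC3T3-E1 cells that received SB216763 (10 μM, 14 days), and pulmonary endothelial cells (EC) of the mouse. MC3T3-E1 is an established line of mouse osteoblast precursors from the calvaria, and SB216763 blocks the kinases GSK3α and GSK3β. The EC were isolated by FACS and served as the endothelial reference. The labels attach the SB216763 protocol to every sample, so groups were taken from titles and treatment entries. Both osteoblast groups are cultures of 1 line. The strain, age and number of mice behind the EC, the gate of the sort and the time in culture of the control cells are not given in the sources used here. Nothing states that the libraries of a group came from separate cultures or animals, so p-values measure the spread between these libraries.

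Depth ran from 30990107 to 68946333 counts per library, and 3 counts, taken as the least that this depth can show, equaled 0.0435 to 0.0968 CPM (counts-per-million, the count relative to the size of its library). Levels below are TMM-normalized CPM, whereas the level of 3 counts is given before that normalization. A gene is said to have risen or fallen at an adjusted p-value (FDR) under 0.01, and to have passed the fold threshold when its log2 fold change was at least 2 in size as well. EC and osteoblasts separated on their markers. The summed level of 14 endothelial markers was 8052 to 8288 CPM in EC, 13.2 to 14.2 CPM in control osteoblasts and 13.5 to 15.2 CPM after SB216763. The summed level of 9 osteoblast markers was 43985 to 59412 CPM, 8095 to 8368 CPM and 45.3 to 64.8 CPM in control, treated and EC libraries. In both osteoblast groups this sum was mainly Col1a1 (mean 24511 CPM in controls and 2732 in treated cells) and Col1a2 (27831 and 5322 CPM). Gene by gene after SB216763, 8 of the 9 fell and 1 was not called, with log2 fold changes from -6.17 to -0.44. In bulk libraries, fewer cells of a type and less RNA per cell cannot be told apart.

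Since the screen read a promoter of this family, RefSeq promoter windows (GRCm38.p6) were searched, on both strands, for 5 short motifs in the 250 bases before each start. Of the 10 windows of the 8 members, 4 are shown, all 5' to 3' on the gene's strand, with motif matches in capitals. They belong to Kdr (chr5:75978456-75978705, minus strand), whose promoter drove the reporter, to Flt1 (chr5:147726012-147726261, minus strand) and Vegfd (chrX:164373272-164373521, plus strand), which fell after SB216763, and to Vegfa (chr17:46032378-46032627, minus strand), which rose. The extent of the promoter in the reporter is not given in the sources used here.
Kdr: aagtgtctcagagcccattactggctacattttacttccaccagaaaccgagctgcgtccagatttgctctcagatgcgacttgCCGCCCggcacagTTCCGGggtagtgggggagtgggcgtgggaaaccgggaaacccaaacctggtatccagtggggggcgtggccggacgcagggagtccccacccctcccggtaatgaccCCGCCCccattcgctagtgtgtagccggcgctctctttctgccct
Flt1: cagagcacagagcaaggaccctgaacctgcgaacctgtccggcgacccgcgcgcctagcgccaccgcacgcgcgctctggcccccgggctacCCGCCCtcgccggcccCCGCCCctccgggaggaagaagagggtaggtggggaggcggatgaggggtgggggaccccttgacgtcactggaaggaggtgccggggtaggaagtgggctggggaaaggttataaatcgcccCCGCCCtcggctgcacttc
Vegfd: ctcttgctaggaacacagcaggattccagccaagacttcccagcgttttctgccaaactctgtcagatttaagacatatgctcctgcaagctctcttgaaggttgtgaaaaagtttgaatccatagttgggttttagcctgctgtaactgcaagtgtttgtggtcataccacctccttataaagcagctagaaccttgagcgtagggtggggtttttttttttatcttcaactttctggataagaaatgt
Vegfa: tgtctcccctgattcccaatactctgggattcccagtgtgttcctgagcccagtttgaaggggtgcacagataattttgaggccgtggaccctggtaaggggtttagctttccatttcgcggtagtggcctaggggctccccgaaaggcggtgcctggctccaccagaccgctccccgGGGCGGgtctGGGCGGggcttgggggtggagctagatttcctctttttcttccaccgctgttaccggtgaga

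The capitals in Kdr mark GC boxes (GGGCGG or its reverse complement CCGCCC) that begin 166 and 45 bases before the start and an ETS core (CCGGAA or its reverse complement TTCCGG) that begins 153 bases before it. In Flt1 they mark GC boxes 158, 142 and 19 bases before the start, and in Vegfa GC boxes 72 and 62 bases before it. The Vegfd window held no match. It was also the least GC-rich of these 4 windows, at 42.4% against 59.2% in Vegfa, 61.6% in Kdr and 70.4% in Flt1, with a median of 52.4% over all 32851 windows. The TCF/LEF core CTTTGA, the sequence bound by the nuclear partners of β-catenin, was in none of the 10 member windows and in 13.8% of all windows. GC boxes were in 8 of the 10 and in 32.7% of all. The member windows not shown held 59.6% (second start of Vegfa) to 76.4% (Vegfb) GC. The GC box is itself all G and C, and its frequency was not adjusted for GC content. The ETS core was in 1 of the 10 and in 12.03% of all, and the SMAD1 element GGCGCC in 2 of the 10 (Vegfc and the second start of Pgf) and in 9.59% of all. The hypoxia response core ACGTG was in 1 of the 10 (the second start of Vegfa) and in 16.6% of all. The windows of the second starts of Vegfa (chr17:46025164-46025413) and Pgf lie inside these genes, downstream of their first starts. By the GENCODE M21 bounds of the genes, the windows of Flt4 and of the first start of Pgf also lie inside their genes. The Vegfd window crosses the start of its gene, and the Kdr window reaches past it by a few bases. Such windows are thus not wholly upstream sequence. These matches describe letters in short windows, and the absence of a match says nothing of more distant sites.

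After SB216763, the family split by member. Vegfa, Vegfb and Pgf rose, Vegfc, Vegfd and Flt1 fell, and for Kdr and Flt4 no difference was detected. Thus 3 of 8 rose, against 32.9% of all genes tested, and 3 of 8 fell, against 32.0%, so calls at this threshold were frequent throughout the transcriptome. Past the fold threshold, 1 member was higher (Pgf), against 3.81% of all genes, and 2 were lower (Vegfd and Flt1), against 5.84%. Treated and control libraries did not overlap for 6 of 8 members, against 73.2% of all genes.

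**Figure D1:**
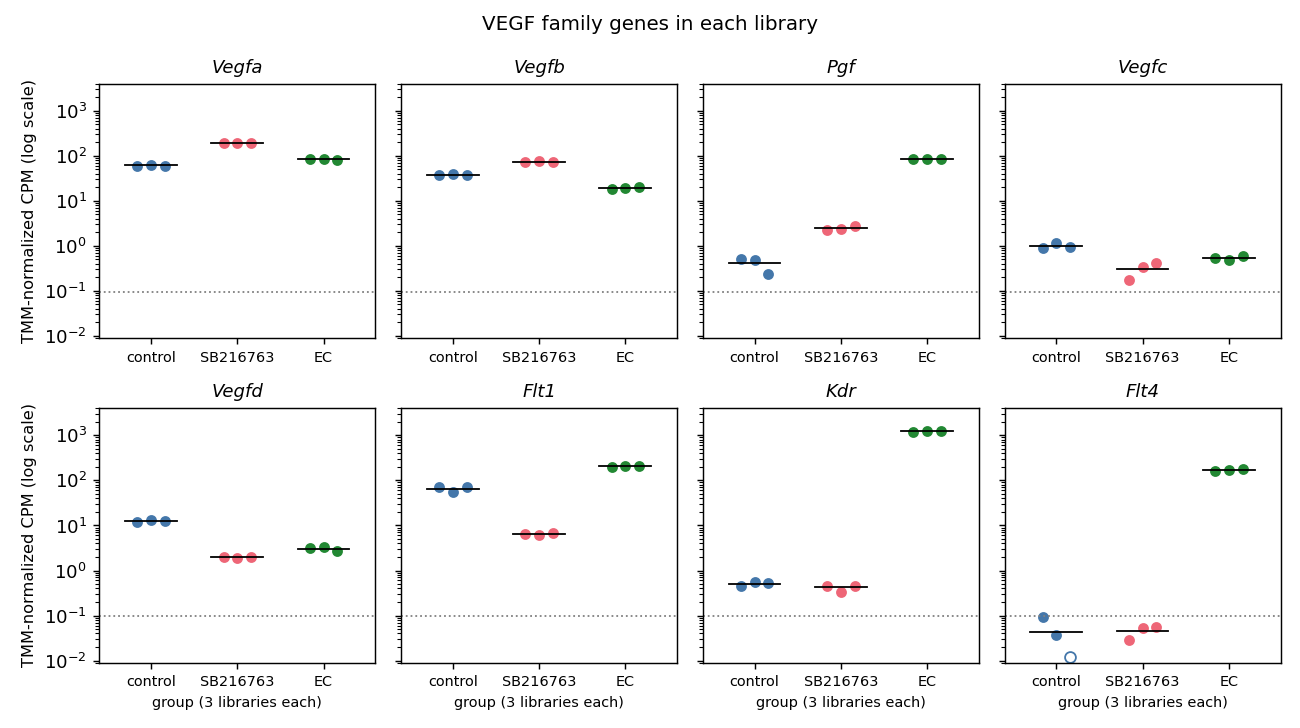
TMM-normalized CPM on a log axis for the 8 VEGF family genes, with 1 point per library and a bar at the mean of each group. A dotted line marks the highest level that 3 counts can stand for before TMM normalization (0.0968 CPM). An open symbol at the lower edge marks a library with 0 counts. Treated libraries lie above controls for Vegfa, Vegfb and Pgf, below them for Vegfc, Vegfd and Flt1, and among them for Kdr and Flt4, whose levels in EC are far higher.

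Vegfa encodes the principal ligand of KDR (chromosome 17, 46016993 to 46032369, minus strand, in GENCODE M21 on GRCm38, as for all positions of genes below). It stood at 59.9, 63.9 and 60.7 CPM in control libraries, 192, 188 and 197 CPM in treated libraries and 85.8, 82.8 and 81.9 CPM in EC. The treated libraries were thus the highest of the 3 groups, with no overlap between any groups. The mean went from 61.5 ± 2.14 to 192 ± 4.40 CPM (SD, n = 3), or 1.64 on the log2 scale (SE 0.04, adjusted p = 1.64e-14). This and all later adjusted p-values are from the quasi-likelihood test of edgeR, adjusted by Benjamini-Hochberg over all genes tested. EC held 83.5 ± 2.06 CPM, 0.44 above controls (adjusted p = 1.43e-07) and below treated cells (log2 fold change -1.20, adjusted p = 2.80e-13).

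Vegfb, whose product binds FLT1 and not KDR (chromosome 19, 6982473 to 6987651, minus strand), was at 37.3, 39.9 and 37.8 CPM in controls, 73.1, 77.5 and 72.0 CPM after SB216763 and 18.7, 19.6 and 20.5 CPM in EC. Treatment moved it away from the EC level, which was the lowest of the 3. The log2 fold change was 0.95 (SE 0.05, adjusted p = 3.97e-11) for treated against control cells, -0.97 (adjusted p = 4.73e-11) for EC against control cells and -1.92 (adjusted p = 4.54e-15) for EC against treated cells.

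Pgf, placental growth factor, a second ligand of FLT1 (chromosome 12, 85166635 to 85177790, minus strand), was the ligand with the widest range on the log scale. The controls held 33, 27 and 7 counts, or 0.520, 0.492 and 0.243 CPM. The treated libraries held 77, 93 and 99 counts, or 2.21, 2.42 and 2.70 CPM, each above every control. EC held 84.5, 83.7 and 83.0 CPM. The rise after SB216763 was 5.36-fold (log2 fold change 2.42, SE 0.16, adjusted p = 1.44e-09), and EC remained 34.2-fold above treated cells (log2 fold change 5.10, adjusted p = 5.58e-18) and 7.52 on the log2 scale above controls (adjusted p = 7.06e-19).

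Vegfc and Vegfd, the ligands of FLT4, both fell. Vegfd (chromosome X, 164373378 to 164402650, plus strand) was at 12.1, 13.4 and 12.3 CPM in controls, 2.01, 1.93 and 1.96 CPM in treated cells and 3.14, 3.26 and 2.73 CPM in EC. Its treated libraries were the lowest of the 3 groups and lay within a narrow range, with a log2 fold change of -2.68 against controls (SE 0.09, adjusted p = 4.59e-13). EC were also lower than controls (log2 fold change -2.05, adjusted p = 2.04e-12) and slightly higher than treated cells (log2 fold change 0.62, adjusted p = 1.18e-04).

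Vegfc (chromosome 8, 54077606 to 54187096, plus strand) was scarce throughout. Controls held 56, 64 and 27 counts (0.882, 1.17 and 0.938 CPM), treated cells 6, 13 and 15 counts (0.172, 0.339 and 0.409 CPM) and EC 24, 16 and 26 counts (0.550, 0.487 and 0.602 CPM). Its fall after SB216763 was a log2 fold change of -1.68 (SE 0.28, adjusted p = 4.62e-05), the least precise of the 6 calls. EC against controls gave -0.86 (adjusted p = 0.00411), a call that was lost without control replicate 2, EC replicate 1 or EC replicate 2 (adjusted p = 0.0263, 0.0160 and 0.0180), and EC against treated cells gave 0.83 (95% interval 0.16 to 1.498, adjusted p = 0.0223), which did not pass.

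Among the receptors, Flt1 (chromosome 5, 147561604 to 147726011, minus strand) was the only one that control osteoblasts expressed above 1 CPM, and it fell most of the 8 members. Control libraries held 69.7, 54.7 and 69.9 CPM, treated libraries 6.48, 5.995 and 6.81 CPM and EC 198, 208 and 209 CPM. The groups did not overlap, and treatment took Flt1 away from EC. The log2 fold change was -3.33 against controls (SE 0.09, adjusted p = 2.70e-14), and the gap to EC went from 1.66 for control cells (adjusted p = 5.18e-12) to 4.995 for treated cells (adjusted p = 6.25e-17). Counts are per gene, so membrane and soluble forms of FLT1 were not separated.

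Kdr (chromosome 5, 75932827 to 75978458, minus strand), the gene behind the reporter, held 29, 30 and 15 counts in control libraries, 16, 13 and 17 counts in treated libraries and 52634, 40551 and 53961 counts in EC. These equaled 0.457, 0.546 and 0.521 CPM, 0.459, 0.339 and 0.463 CPM, and 1206, 1235 and 1250.1 CPM. Treated and control libraries overlapped. Their log2 fold change was -0.26 (adjusted p = 0.373), which holds for this scaling and this fit. The fitted 95% interval, -0.66 to 0.13, was narrower than counting error alone, so its upper end sets no limit to a rise. Pooled and scaled to total counts, 46 treated against 74 control counts gave a ratio of 0.959 (exact 95% interval 0.649 to 1.40, for counting error only). Over the alternatives the log2 fold change ranged from -0.36 to -0.06, the latter with scaling by library size only. EC exceeded control cells by 11.25 (adjusted p = 1.35e-20) and treated cells by 11.51 (adjusted p = 1.56e-20) on the log2 scale. By flow cytometry, the paper reports EGFP from the reporter in nearly all treated cells, most of them with CD31 and VE-cadherin. It also reports induction of endothelial markers by PCR. The flow measures read an inserted promoter and proteins, whereas the counts here are RNA of Kdr itself.

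Flt4 (chromosome 11, 49609263 to 49652739, plus strand) held 6, 2 and 0 counts in controls, 1, 2 and 2 in treated cells and 7082, 5634 and 7567 in EC. Both osteoblast groups averaged at or under the level of 3 counts, so no fold between them is reported as a difference. In EC the level was 169.7 ± 6.74 CPM (SD, n = 3). Per total count, EC exceeded controls 3406-fold (exact 95% interval 1728 to 7890, from 20283 against 8 counts) and treated cells 3532-fold (1513 to 10879, from 20283 against 5), intervals that cover counting error only (adjusted p = 1.16e-19 and 1.96e-19).

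**Figure D2:**
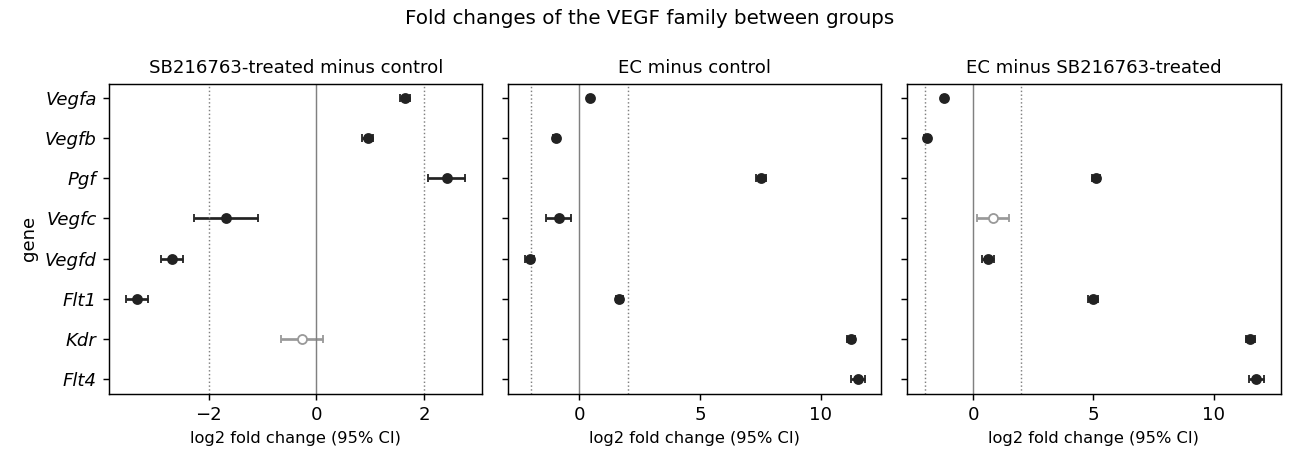
Log2 fold changes with fitted 95% intervals for SB216763-treated against control cells, EC against control cells and EC against treated cells, with filled symbols at an FDR under 0.01, open symbols otherwise and dotted lines at the fold threshold of 2. The intervals can be narrower than counting error where a group held few counts, as for Kdr, Flt4 and Pgf in EC against control cells. Flt4 is left out of the first panel because both groups were at or under 3 counts on average, and its fitted values in the other panels depend on the prior count. Pgf alone lies beyond the threshold on the right in the first panel, with Vegfd and Flt1 beyond it on the left.

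In EC against control cells, 3 members passed the fold threshold upward (Pgf, Kdr and Flt4), against 13.5% of all genes, and 1 downward (Vegfd), against 9.87%. Without EC replicate 3, or with scaling by library size only, Vegfd was under the fold threshold and 0 members passed downward, while edgeR still called it at an FDR under 0.01. At the FDR threshold, 5 were higher, against 39.0% of genes, and 3 lower, against 37.9%. In EC against treated cells, 4 passed upward (Pgf, Flt1, Kdr and Flt4), against 15.0%, and 0 downward by edgeR, limma-voom or DESeq2, against 10.3%. At the FDR threshold of that comparison, edgeR called 5 higher, against 40.3%, and 2 lower (Vegfa and Vegfb), against 38.3%, and these 2 were also the only members lower at an unadjusted p under 0.05. Libraries of the groups compared did not overlap for 8 of 8 members in either comparison, against 84.0% of all genes for EC against control cells and 85.4% for EC against treated cells. The 3 comparisons share their groups and are not independent of each other.

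Levels of different genes were set side by side as CPM per kilobase of exon, from the joined exons of GENCODE M21. Control osteoblasts carried more ligand than receptor transcript, led by Vegfb at 23.9 and Vegfa at 14.4 CPM per kb. Next came Vegfd at 5.22 and Flt1 at 4.80, whose libraries overlapped, then Vegfc at 0.406, Pgf at 0.144, Kdr at 0.0563 and Flt4 at 0.00530 CPM per kb. After SB216763, Vegfb (46.2) and Vegfa (44.8) overlapped at the top, Pgf (0.841) and Vegfd (0.816) overlapped far below them, and Flt1 (0.476), Vegfc (0.1251), Kdr (0.0465) and Flt4 (0.00548 CPM per kb) followed without overlap. EC had another order, with Kdr first at 136 and Pgf second at 28.8, then Flt4 (20.6) and Vegfa (19.5), which overlapped, Flt1 (15.2), Vegfb (12.2), Vegfd (1.26) and Vegfc (0.223 CPM per kb). With the longest transcript as the length, Flt1 stood above Vegfd in controls (9.40 against 6.13 CPM per kb) and above Flt4 in EC (29.7 against 27.1), where Flt4 and Vegfa no longer overlapped. In treated cells Pgf then stood above Vegfd (1.17 against 0.959), Vegfd overlapped Flt1 (0.932) and Vegfc (0.1251) overlapped Kdr (0.0709 CPM per kb).

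Summed over genes, ligand transcripts went from 44.0 ± 1.71 CPM per kb in controls to 92.8 ± 0.994 after SB216763, with 62.0 ± 0.240 in EC (SD, n = 3). Receptor transcripts went from 4.86 ± 0.643 to 0.528 ± 0.0375 CPM per kb, with 172 ± 3.76 in EC. Treated osteoblasts thus had the highest ligand sum and the lowest receptor sum of the 3 groups. EC alone had more receptor than ligand transcript.

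The make-up of the ligand pool was computed as each gene's share of the summed counts per kb, which does not depend on the scaling of libraries. In controls Vegfb made up 54.3% ± 0.201, Vegfa 32.6% ± 0.146 and Vegfd 11.9% ± 0.205 (SD, n = 3). After SB216763, Vegfa made up 48.3% ± 1.46, Vegfb 49.8% ± 1.53 and Vegfd 0.880% ± 0.0266. In EC, Pgf made up 46.5% ± 0.241, Vegfa 31.4% ± 0.652 and Vegfb 19.7% ± 0.971. The share of Pgf was 0.327% ± 0.118 in controls and 0.907% ± 0.0891 in treated cells, and that of Vegfc was under 1 percent in every group (0.921%, 0.135% and 0.360%).

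The receptor pool of osteoblasts was nearly all Flt1, at 98.7% ± 0.253 in controls and 90.2% ± 0.719 after SB216763, against 8.82% ± 0.0778 in EC. Kdr made up 1.18% ± 0.259, 8.78% ± 0.958 and 79.2% ± 0.285, and Flt4 0.109% ± 0.110, 1.04% ± 0.343 and 11.98% ± 0.216. The larger shares of Kdr and Flt4 in treated cells came with the lower Flt1 level above and with no rise detected in Kdr or Flt4 itself. The Flt4 shares of osteoblasts rest on 0 to 6 counts a library. In all 24 tests of a share between groups the libraries did not overlap and the 2-sided exact permutation test gave p = 0.1, the smallest p that 3 against 3 libraries allow, and 0.1 after Benjamini-Hochberg adjustment, so none could pass 0.05. Shares within a pool depend on each other, so these are not 24 separate results.

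**Figure D3:**
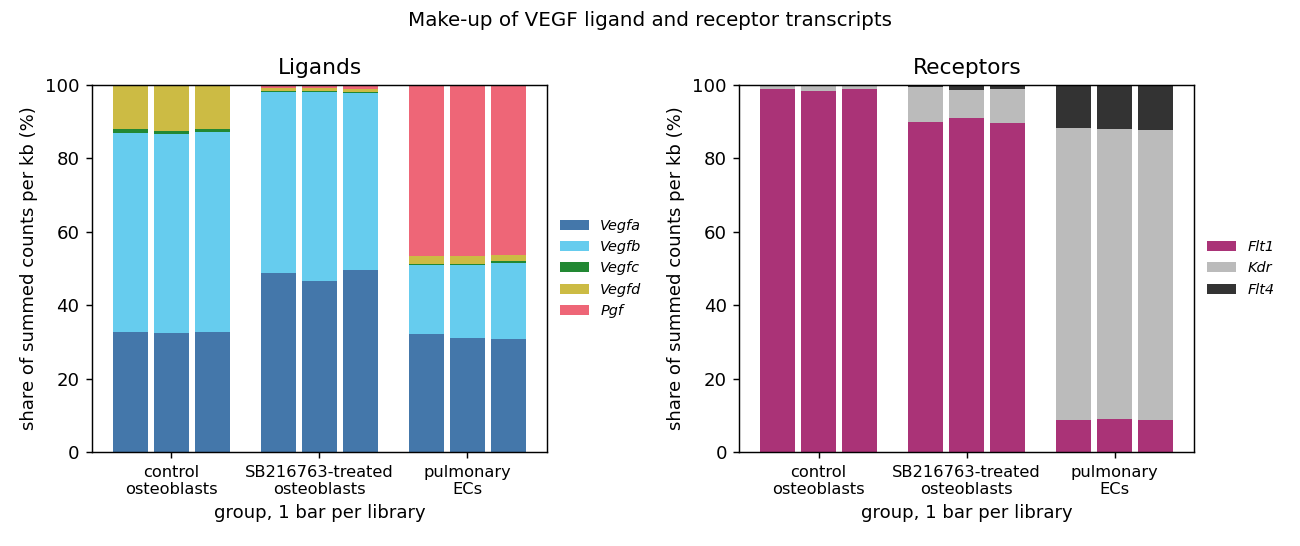
Share in percent of each ligand in the summed counts per kb of the 5 ligands (left) and of each receptor in those of the 3 receptors (right), with 1 stacked bar per library in each group. Vegfb and Vegfa fill nearly the whole ligand bar after SB216763 while Pgf takes 46.5% in EC, and Flt1 dominates both osteoblast groups while Kdr takes 79.2% in EC.

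The genes around the family were described in lists, set beside all genes tested, of which 5117 rose, 4966 fell and the median log2 fold change was 0.01 after SB216763. Of 16 co-receptors and binding proteins, 6 rose and 8 fell, with a median of -0.23. Nrp1, the neuropilin that joins KDR in binding VEGFA, rose from 66.1 ± 0.556 to 172 ± 7.05 CPM (137 in EC), and Itgb3, the β3 integrin subunit that associates with KDR, rose from 19.2 to 114 CPM (277 in EC). Nrp2, the neuropilin that binds VEGFC and pairs with FLT4, fell from 1302 ± 184 to 106 ± 3.22 CPM (442 in EC), a log2 fold change of -3.62 (adjusted p = 3.25e-15). Timp3, a matrix inhibitor that blocks the binding of VEGFA to KDR, fell from 1368 to 92.2 CPM (865 in EC), a log2 fold change of -3.89 (adjusted p = 1.37e-17). The 2 neuropilins thus moved in opposite directions, as did the ligands they are known for.

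Of the 11 genes listed for the processing of VEGFC and VEGFD, which are secreted as precursors and cleaved, 8 were tested, of which 5 rose and 1 fell (median 0.99). Adamts14 rose from 8.30 to 64.8 CPM and Adamts2 from 133 to 448 CPM, while both were under 0.4 CPM in EC (0.140 and 0.354). These proteases are related to ADAMTS3, which activates VEGFC, and are better known for cleaving procollagens. Adamts3 itself, on the list but not tested, had 0 counts in every library. Pcsk6, a proprotein convertase, fell from 56.2 ± 2.04 to 0.397 ± 0.132 CPM (64.2 in EC), a log2 fold change of -7.12 (adjusted p = 1.55e-17).

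Of 43 genes of VEGF receptor signaling that were tested, 17 rose and 16 fell, with a median of -0.01, close to that of all genes. The adaptors Nck2 (14.2 to 154 CPM) and Shc1 (116 to 284 CPM) rose most. Nfatc2, a transcription factor downstream of calcineurin, fell from 5.03 to 0.219 CPM, and Pik3cb, a catalytic subunit of PI3K, from 13.6 to 5.71 CPM (73.1 in EC). Plcg2 fell as well, from 0.638 to 0.0278 CPM, and is named after its values were seen because the rule required at least 1 CPM.

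The list of feedback regulators and inhibitors of VEGF signaling held the most changes past the fold threshold, 7 upward and 2 downward of 20 tested, against 3.81% and 5.84% of all genes, with a median of 0.80. In all, 11 rose and 9 fell. Spry4, a Sprouty inhibitor of receptor tyrosine kinase signaling, rose from 0.140 ± 0.0438 to 6.53 ± 0.565 CPM (12.8 in EC), and Spry1 from 5.44 to 65.2 CPM (2.02 in EC). The other upward genes, named after their values were seen, were Dusp6, Flrt2, Dll4, Dusp5 and Ptprj, with log2 fold changes of 3.41, 3.10, 3.06, 2.74 and 2.504. Of these, Dll4 was scarce, at 0.0679 CPM in controls, near the level of 3 counts, and 0.701 CPM in treated cells (12.9 in EC). DUSP5 and DUSP6 are phosphatases of ERK, which many growth factor receptors activate. Sema3f, a semaphorin that binds NRP2, fell from 4.11 to 0.562 CPM (258 in EC), and Ptprb, the endothelial phosphatase VE-PTP, from 2.62 to 0.440 CPM (777 in EC).

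Vegfa is a known target of hypoxia-inducible factors (HIF), so HIF genes were listed as well. Of 10 regulators tested, 5 rose and 2 fell (median 0.25) and the change of greatest size was -1.89 on the log2 scale, for Arnt2. The negative regulators Hif1an and Vhl rose, Hif1an from 59.6 to 91.8 CPM and Vhl from 73.5 to 105 CPM, while Hif1a fell from 161 to 132 CPM and Arnt2 from 2.54 to 0.680 CPM. Of 19 HIF target genes tested, 7 rose and 8 fell, with a median of -0.10. Kdm3a rose from 54.3 to 139 CPM and Car9 from 0.249 to 1.19 ± 0.560 CPM, whereas Ndrg1 fell from 64.6 to 5.48 CPM and Pfkfb3 from 24.7 to 9.02 CPM. These are RNA levels, and the part of HIF in the rise of Vegfa was not tested.

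Of 16 genes known to respond to VEGF in endothelial cells, 4 rose and 8 fell, with a median of -0.96. Mmp14, a membrane-bound matrix protease, rose from 581 to 2661 CPM (42.9 in EC) and the early growth response gene Egr3 from 2.65 to 11.2 CPM (2.08 in EC). Plaur, the urokinase receptor, fell from 34.2 to 7.65 CPM (136 in EC), and Pgm5 from 10.6 to 1.0003 CPM (2.96 in EC). Of 18 endothelial transcription factors tested, 8 rose and 5 fell (median -0.03). Foxc1 rose from 19.2 to 162 CPM (6.62 in EC), and Nr2f2, a regulator of venous identity, from 35.3 to 193 CPM (179.6 in EC). Klf2, a factor induced by shear stress, fell from 46.6 to 4.14 CPM (169 in EC), and Hhex from 2.79 to 0.455 CPM (48.7 in EC). In EC against controls, 13 of these 18 factors passed the fold threshold upward, against 13.5% of all genes, and at an FDR under 0.01 edgeR called 15 higher and 3 lower, against 39.0% and 37.9%, with a median of 3.57 against 0.01 for all genes.

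**Figure D4:**
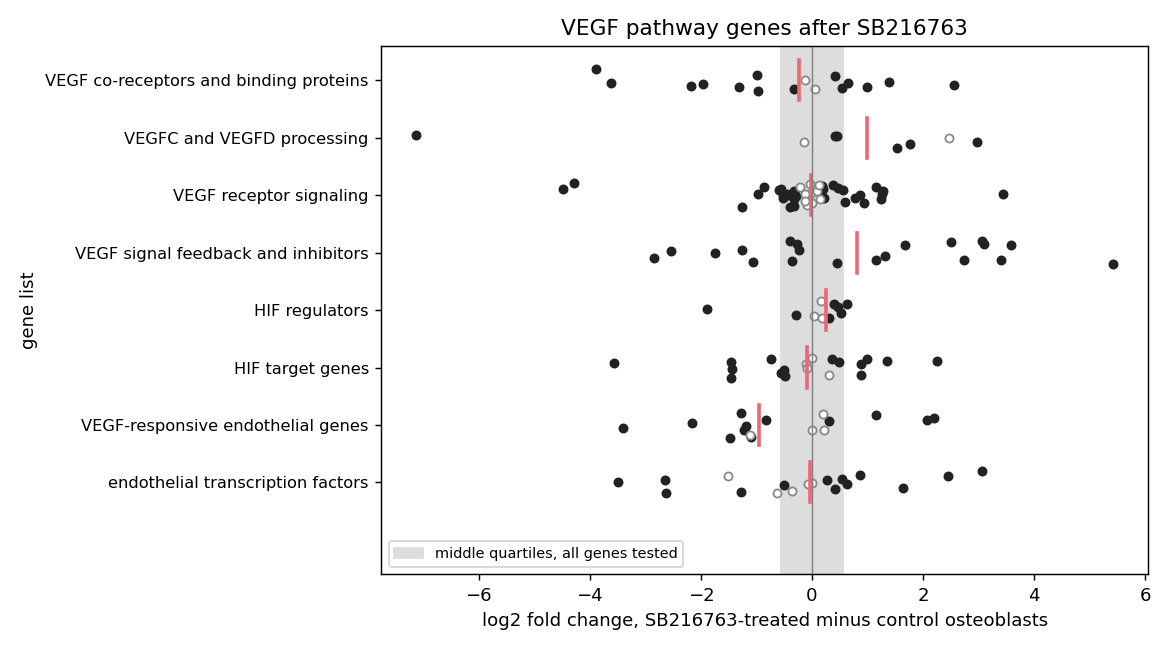
Log2 fold change of treated against control osteoblasts for each gene tested of 8 lists around the VEGF family, with filled points at an FDR under 0.01, open points otherwise, red bars at the median of each list and a gray band for the middle quartiles of all genes tested. Points spread to both sides in each list, with the median at 0.80 for feedback genes and inhibitors and at -0.96 for VEGF-responsive endothelial genes.

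For each member, the genes whose level followed it most closely were found from log2 CPM centered per gene over the 9 libraries, by the root mean squared difference among 13327 genes. The 9 libraries are 3 groups of 3, so the measure mostly compares 3 group means. The closest match was for Vegfb, with Tmem127 at 0.0448, followed by Akr7a5 and Mapkapk3 (0.0467 and 0.0499). For Vegfa they were Acot13, Hs1bp3 and Tusc2 (0.0826, 0.0826 and 0.0833), for Vegfd Ccn4, Adamts5 and Efcab11 (0.0754, 0.0914 and 0.135) and for Flt1 Iqgap3, Pole and Fhl1 (0.0775, 0.174 and 0.175). Ccn4 went from 223 to 33.8 CPM with 52.3 CPM in EC, close to the course of Vegfd, and Iqgap3 went from 31.9 to 2.84 CPM with 95.6 CPM in EC, close to that of Flt1. Matches were looser for the members with few counts in osteoblasts. For Kdr they were Acvrl1, Pecam1 and Emcn (0.197, 0.198 and 0.246), for Flt4 Acvrl1, Podxl and Kif26a (0.322, 0.337 and 0.388), for Pgf Hmga1b, Dock8 and Gch1 (0.188, 0.285 and 0.341) and for Vegfc Snhg5, Egf and Gm13436 (0.235, 0.248 and 0.253). Counts of Hmga1b are uncertain, since near-identical copies exist.

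Markers of other cells were measured beside these results. All 14 endothelial markers were higher in EC than in controls past the fold threshold. Between treated and control osteoblasts 2 rose (Plvap from 0.899 to 3.31 CPM and Calcrl from 0.260 to 0.600 CPM), 1 fell (Eng from 4.52 to 2.65 CPM) and 11 were not called. Of 6 lymphatic markers, Prox1 held 0 or 1 count in every library, Mmrn1 at most 2, Reln at most 6 and Ccl21a 0. Lyve1 held 2905 to 3846 counts in EC, beside the high Flt4, while Pdpn held 3 to 6 counts in EC and 2613 to 6222 in osteoblasts. In EC, Cd3e and Epcam had 0 counts and Ptprc 1 to 6, whereas Cd68 held 1535 to 2050 counts (46.6 ± 0.986 CPM, against 0.532 in controls and 1.63 in treated cells). Lyz2 held 331 to 462 counts in EC (10.4 CPM), against 26.0 CPM in controls and 7.04 CPM in treated cells. The summed hematopoietic markers were 57.4 to 59.7 CPM in EC, against 26.9 to 28.3 in controls and 8.57 to 10.1 after SB216763. This sum was mainly Cd68 in EC and mainly Lyz2 in both osteoblast groups. Summed mural markers were 3149 to 3296, 912 to 922 and 25.9 to 27.2 CPM in control, treated and EC libraries, fibroblast markers 5244 to 6001, 1175 to 1271 and 23.8 to 26.4 CPM, and lung epithelial markers 1.01 to 1.08, 2.35 to 3.32 and 1.43 to 2.43 CPM. In controls the mural sum was mainly Acta2 (2915 CPM, 144 in treated cells) and the fibroblast sum mainly Col3a1 (5198 CPM, 532 in treated cells). Gene by gene after SB216763, 2 of 6 mural markers tested rose and 3 fell. Of 5 fibroblast markers tested, 3 rose and 2 fell. The part of these differences in the results above was not tested.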

How the data were processed

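RNA-Seq counts of 9 libraries were analyzed, 3 per group. The authors aligned and counted reads per gene with STAR and deposited raw counts without normalization. The submitters' processing notes name STAR 2.5.3a and GRCm38. The annotation and strand setting are not given in the sources used here. Symbols were found for 50376 of 50686 identifiers, and positions and exon lengths for 50462 in GENCODE M21.

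Genes passing filterByExpr were TMM-normalized and tested with edgeR 4.0.16 (R 4.3.3), by a quasi-likelihood fit of all 9 libraries with Benjamini-Hochberg adjustment over 15531 genes (prior count 0.125). No 2 replicates agreed within counting error (chi-square per gene 3.05 to 115). Standard errors and intervals of log2 fold changes came from the fitted fold and its F statistic. Where a group held few counts, some were narrower than counting error. Pooled count ratios were scaled to total counts, with exact 95% intervals.

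The members, gene lists, markers and motifs were chosen with earlier results of these data known. Besides the 8 members, the text names the 2 genes that rose and the 2 that fell most in each list (at least 1 CPM in the higher group) and the 3 nearest genes of each member.

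Other settings tried were DESeq2 1.42.0, limma-voom (limma 3.58.1), other size factors, filters, thresholds, prior counts and lengths, fits of 2 groups, the replicate number as a block and leaving out each library. In simulated counts for SB216763 against control, 199 of 200 genes changed by a log2 of 3 were called among 15531, and 0 others. The changed genes were drawn from those with a mean over 1 CPM across the 9 libraries, so recovery at lower levels or of smaller changes was not tested. Far fewer genes changed than were called in the data, and the spread was that of the fit. The simulation thus checks the code and does not measure the error of the reported calls. Same-numbered libraries of different groups deviated from their group means with correlations of -0.0392 to 0.123 across genes, and not every one was over 0.1, so the numbers were not taken as pairs. One marker of the hematopoietic list is not reported here and was left out of its sum.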

Additional observations from a re-analysis of the deposited data

How the results depend on the processing

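Of 407 log2 fold changes of members recomputed, 399 kept their direction and their side of the FDR threshold. The fitted log2 value of Flt4 in treated against control cells, from 0 to 6 counts a library and not a measured difference, was -0.24 in the reported fit, 0.27 with limma-voom (adjusted p = 0.733), 0.84 without control replicate 1 (adjusted p = 0.486) and -0.55 without control replicate 3. Vegfc in EC against controls lost its call with library size only (adjusted p = 0.0122), DESeq2 (0.0145), without control replicate 2 (0.0263), EC replicate 1 (0.0160) or EC replicate 2 (0.0180), and in EC against treated cells it was called at an FDR under 0.05. Members lower past the fold threshold in EC against controls went from 1 to 0 with library size only and ranged from 0 to 1 when each library was left out (0 without EC replicate 3), as Vegfd lay near the threshold. With a log2 fold change of at least 1, members higher after SB216763 were 2 (with Vegfa) and members lower in EC than in treated cells 2 (Vegfa and Vegfb). The cause of the shifts by scaling and tool was not tested. Library size only moved all genes by 0.20 (treated against control), 0.13 (EC against control) and -0.08 (EC against treated) on the log2 scale. Counts for the gene lists changed by over 1.5 times in 2 of 864 settings, both for HIF regulators that fell, to 1 after SB216763 with library size only and to 4 in EC against controls at an FDR under 0.05. All 192 alternative values of a share kept their direction.

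With a replicate block in the fit, 581 genes were higher and 901 lower past the fold threshold after SB216763 (592 and 907 without), 2101 and 1533 in EC against controls, and 2331 and 1605 in EC against treated cells. The block changed no count of members: 1 higher and 2 lower, 3 higher and 1 lower, and 4 higher and 0 lower. Of 9 comparisons of libraries, 3 correlated best with their own number. At most 64 counts a library limit Vegfc, Kdr and Flt4 in osteoblasts.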
